A study of Mus musculus with 31 samples.

Results

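The respiratory chain of mitochondria was read here through the nuclear genes that encode its protein subunits, in RNA of the mouse hippocampus during T cell-driven limbic encephalitis. Members were the genes whose symbols belong to the Nduf series of complex I, the Sdh genes of complex II, the Uqcr genes of complex III, the Cox genes of series 4 to 8 of complex IV, or the Atp5 genes of complex V. The rule found 83 of the 15648 genes in the table, with 39 in complex I, 4 in complex II, 8 in complex III, 15 in complex IV and 17 in complex V. Expression values did not enter the rule. Of the table's genes, 824 carried no symbol and could not be found this way. Ndufa4 stands under complex I by its symbol, although the protein is now counted with complex IV. Cox7a2l, which helps to join complexes III and IV, stands under complex IV.

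Complexes I and II pass electrons from NADH and succinate to ubiquinone, complex III hands them on to cytochrome c, and complex IV gives them to oxygen. The protons pumped on the way drive complex V, the ATP synthase. Neurons depend heavily on this supply of ATP to keep their ion gradients. A small set of core subunits is encoded by mitochondrial DNA and all others by the nucleus, so both genomes must supply parts of complexes I, III, IV and V, while complex II is wholly nuclear.

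All mice were adult OT-I/Rag1-/- animals, whose CD8+ T cells carry a transgenic receptor for an ovalbumin (OVA) peptide on H-2Kb and which, lacking Rag1, form no other mature T or B cells. The rAAV-OVA group received rAAV-hSyn-OVA-mCherry and the rAAV-control group rAAV-hSyn-mCherry, injected into the dorsal CA1 region on both sides, so that the neuronal hSyn promoter drove the transgene. Left hippocampi were taken after 2, 5, 8 and 28 days, and each mouse gave 1 library. Groups held 4 mice, except rAAV-control at 8 days with 3. Of the 31 mice, 23 formed batch 1 and 8 batch 2, all mice of 5 and 8 days were in batch 1, and each group of 2 and 28 days held 2 mice of each batch. Whole hippocampus was sequenced, so fewer cells of a type and less RNA per cell cannot be told apart. The p-values measure the spread between these mice.

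Libraries held between 19046977 and 57407902 counts, and 82 of the 83 members had 15 or more counts in every mouse. The members took 0.811% to 1.94% of a library's counts. The 3 highest shares belonged to batch 1 mice of 2 days, namely rAAV-OVA mice D684 and D683 and rAAV-control mouse D740. These 3 libraries stood apart, and counts that move without them are given as such. Neuronal marker genes were abundant in every mouse, with a sum over 9 genes between 4404 and 14595 counts per 1000000 (CPM).

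Levels of different genes were compared as CPM per kilobase of transcript, averaged over the 31 mice. The median member stood at 143 CPM per kilobase. Atp5b, the catalytic beta subunit of ATP synthase, was highest at 1311, and Cox4i2, an isoform of a complex IV subunit, lowest at 1.62. Medians by complex were 100.3 for complex I, 91.6 for complex II, 199 for complex III, 224 for complex IV and 216 for complex V. Isoforms known from heart and skeletal muscle, testis, lung or low oxygen stood far below their usual partners. Cox4i2 reached 0.247% of Cox4i1, Cox6a2 0.887% of Cox6a1, Cox7a1 1.28% of Cox7a2, Cox6b2 0.901% of Cox6b1 and Ndufa4l2 0.563% of Ndufa4. Of the 3 genes for the c subunit of ATP synthase, Atp5g3 gave 80.4% of the summed CPM per kilobase, Atp5g1 16.1% and Atp5g2 3.48%. That split rests on the median annotated transcript length, 2675.5 bases for Atp5g1 against 770 for Atp5g3, and as plain CPM the shares were 57.7% for Atp5g3, 40.1% for Atp5g1 and 2.21% for Atp5g2.

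Promoters of nuclear chain genes are known for sites of NRF-1, GABP and YY1. Promoter windows from 250 bases before to 50 bases after the start site were available for 67 of the 83 members in RefSeq (GRCm38.p6). Both strands were searched for GCGCATG (the core of the NRF-1 site) and CCGGAAG (an ETS site that GABP can use). AAGATGG (the core of the YY1 site) was searched for as well. CCGGAAG ends and AAGATGG begins with AAG, so 1 stretch can count for both motifs. GCGCATG stood in 19.4% of the member promoters and in 6.66% of 11563 promoters of genes tested. CCGGAAG stood in 23.9% and 16.6%, and AAGATGG in 14.9% and 6.84%. At least 1 motif was found in 47.8% of the member promoters against 26.9% of all. For each complex, the window is shown of the member with the lowest FDR at 5 days among those with a promoter. Members on 1 chromosome were left out of this choice, so the member shown need not have the lowest FDR of its complex. Capitals mark motif matches, and a window without capitals holds none of these letters. The windows lie at chr19:4012706-4013005 (minus strand, Ndufv1), chr13:74350191-74350490 (minus, Sdha), chr10:80406772-80407071 (minus, Uqcr11), chr19:7217567-7217866 (minus, Cox8a) and chr10:80142025-80142324 (plus, Atp5d).
Ndufv1: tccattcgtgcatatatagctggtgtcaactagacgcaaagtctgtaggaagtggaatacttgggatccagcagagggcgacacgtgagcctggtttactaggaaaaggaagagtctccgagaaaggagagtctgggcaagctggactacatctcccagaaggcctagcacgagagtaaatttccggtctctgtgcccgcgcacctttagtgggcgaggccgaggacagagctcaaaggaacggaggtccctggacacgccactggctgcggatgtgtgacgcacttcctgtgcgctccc
Sdha: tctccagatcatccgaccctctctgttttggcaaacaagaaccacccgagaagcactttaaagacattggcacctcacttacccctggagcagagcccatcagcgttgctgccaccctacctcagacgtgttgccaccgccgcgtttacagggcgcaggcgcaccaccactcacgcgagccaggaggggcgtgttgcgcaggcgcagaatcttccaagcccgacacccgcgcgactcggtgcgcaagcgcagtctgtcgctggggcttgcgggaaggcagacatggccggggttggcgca
Uqcr11: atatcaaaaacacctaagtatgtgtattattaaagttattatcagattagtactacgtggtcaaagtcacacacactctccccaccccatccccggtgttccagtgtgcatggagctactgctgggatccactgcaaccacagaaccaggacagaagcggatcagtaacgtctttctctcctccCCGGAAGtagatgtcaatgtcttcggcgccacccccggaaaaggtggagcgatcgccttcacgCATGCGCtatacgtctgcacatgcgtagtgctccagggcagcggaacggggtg
Cox8a: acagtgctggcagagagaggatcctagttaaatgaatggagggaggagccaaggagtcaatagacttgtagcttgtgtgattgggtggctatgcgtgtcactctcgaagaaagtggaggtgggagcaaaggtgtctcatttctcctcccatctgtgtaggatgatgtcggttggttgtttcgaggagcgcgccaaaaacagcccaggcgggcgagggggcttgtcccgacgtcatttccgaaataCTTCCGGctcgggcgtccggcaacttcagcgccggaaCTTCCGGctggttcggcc
Atp5d: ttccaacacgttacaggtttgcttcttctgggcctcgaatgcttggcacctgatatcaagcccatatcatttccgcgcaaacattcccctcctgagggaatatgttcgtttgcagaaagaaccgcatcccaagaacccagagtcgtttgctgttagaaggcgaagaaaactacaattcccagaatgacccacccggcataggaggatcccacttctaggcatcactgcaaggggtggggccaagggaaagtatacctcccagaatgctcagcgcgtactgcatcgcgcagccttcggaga
The Uqcr11 window holds a match to CCGGAAG and one to GCGCATG on the opposite strand, and the Cox8a window 2 matches to CCGGAAG on the opposite strand. Among 17 promoters of members that were lower at 5 days, 5 held any motif, and among the 50 other member promoters 27 did.

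At 5 days part of the chain genes passed the test, all of them lower in rAAV-OVA than in rAAV-control mice, while in most members and in their sum the groups overlapped. A member was called when the quasi-likelihood test of edgeR, with Benjamini-Hochberg adjustment across all 15648 genes, gave an FDR up to 0.05. By this rule 23 of the 83 members (27.7%) fell and 0 rose, against 14% of all genes that fell and 15.2% that rose. Of the members, 81 had a Log2FC (rAAV-OVA over rAAV-control) below 0, and the median was -0.29 where the median of all genes was -0.01. The falls called ran from 13.2% to 38.8%. At an unadjusted p under 0.05, 50 members were lower and 0 higher, and DESeq2 and limma's voom called 0 members higher. The falls were small beside the limit of 0.66 that the study sets on Log2FC, which 1 member (1.2%) and 4.67% of all genes passed downward. In 16 members (19.3%) every rAAV-OVA mouse lay below every rAAV-control mouse, a share close to the 19.6% of all genes. Of the 23 members called, 13 had groups that did not overlap.

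**Figure D1:**
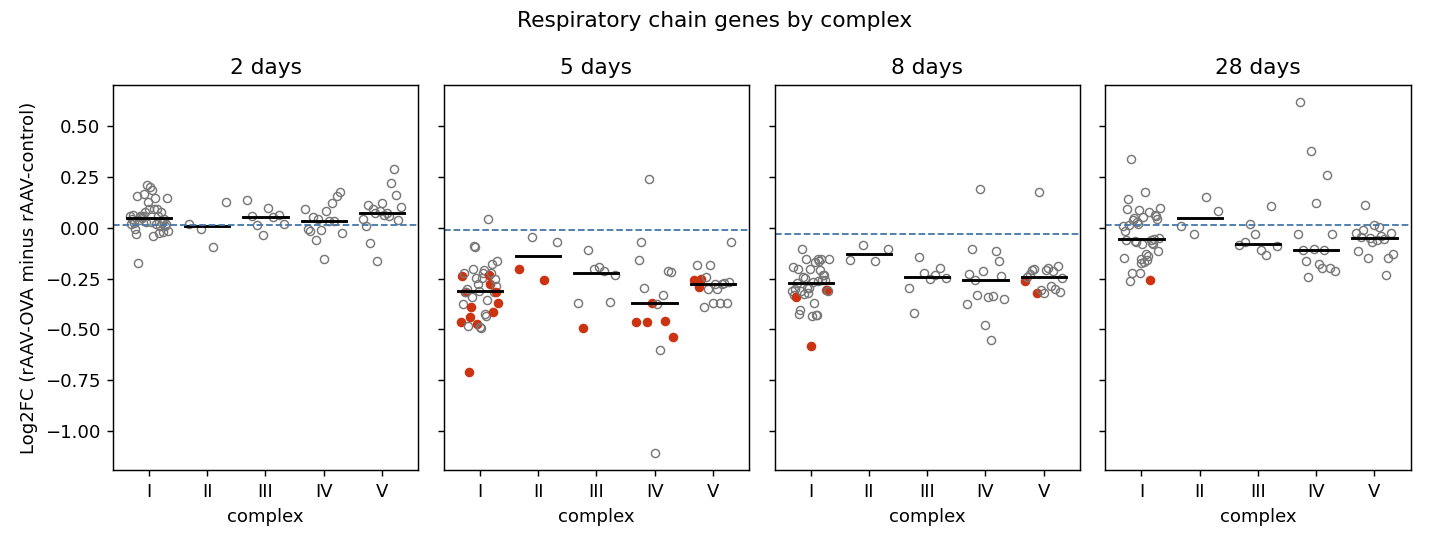
Log2FC of the 83 members at each time point (y axis), arranged by complex (x axis), with filled red points for members at an FDR up to 0.05, open grey points for the others, a black bar for the median of a complex and a dashed line for the median of all genes. At 5 days all 5 medians lie below the dashed line, between -0.14 and -0.37, and at 28 days they lie between -0.11 and 0.04.

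The count of 23 depended on single mice. With any 1 of the 31 mice left out it ran from 3 to 22, and it fell by more than 1.5 times for 18 of them. It was 3 without rAAV-OVA mouse BEC-B541 of 2 days or rAAV-control mouse D723 of 5 days, 4 without D684, 7 without BEC-B542 or D722, and 9 to 15 without D725, D845, D786, BEC-B544, D701, D726, D700, D703, D724, D755, D844, D851 or D787. Without the 3 libraries of highest member share it was 14, without surrogate variables (covariates estimated from the counts for differences among libraries) 8, and from the mice of 5 days alone 20. Cox8a was called with each of the 31 mice left out, Ndufv1 in 29 and Ndufa4l2 in 28 of these fits, while Cox4i1 was called in 3. The median over the members stayed below 0 with each mouse left out, between -0.32 and -0.13.

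Complex I, which oxidises NADH, held 12 of the 23 members called, of 39 (30.8%, where the share over all genes was 14% here and for each list of 5 days), and its median Log2FC was -0.31. Of its 8 genes of the NADH-binding module 3 fell, with a median of -0.27, of its 8 genes of the ubiquinone-binding module 3 fell, with a median of -0.28, and of its 23 other members 6 fell, with a median of -0.32. Ndufv1, the subunit that binds NADH and FMN, gave 142.4, 124.9, 152.2 and 137.1 CPM in the rAAV-control mice and 108.2, 111.3, 109.2 and 107.5 CPM in the rAAV-OVA mice at 5 days. The 4 rAAV-OVA mice lay close together and all below the lowest rAAV-control mouse, at a Log2FC of -0.31 (SE 0.09, FDR = 0.0090 by edgeR's quasi-likelihood test). Ndufs1, the largest core subunit, gave 140.7, 127.7, 125.5 and 113.1 CPM in rAAV-control and 102.5, 107.6, 102.7 and 105.1 CPM in rAAV-OVA mice. The rAAV-OVA mice were again all lower, with a Log2FC of -0.23 (SE 0.08, FDR = 0.034).

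Among the accessory subunits of complex I, Ndufb11, of the membrane arm, fell with a Log2FC of -0.47 (FDR = 0.013 by edgeR), from 88.6, 85.2, 95.8 and 88.6 CPM in rAAV-control to 62.4, 81.6, 65.7 and 66.8 CPM in rAAV-OVA mice. Mouse D726 was the highest of the rAAV-OVA mice and still below all rAAV-control mice. The other members of complex I called were Ndufa6, Ndufv3, Ndufa10, Ndufa5, Ndufs5, Ndufa1 and Ndufa13, with Log2FC values from -0.24 to -0.46. Core subunit Ndufs7 missed the limit at a Log2FC of -0.25 (FDR = 0.056), as did Ndufa4, the member of complex I with the highest mean CPM, at -0.49 (FDR = 0.062). Ndufc2 had the only Log2FC above 0 in this complex, 0.04 (FDR = 0.83).

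Ndufa4l2, which takes the place of Ndufa4 and is known to be induced at low oxygen, was the only member to pass the study's limits on both FDR and Log2FC. Its values were 2.24, 2.30, 2.63 and 2.21 CPM in rAAV-control mice and 1.24, 1.63, 1.43 and 1.38 CPM in rAAV-OVA mice at 5 days. The groups did not overlap, and the Log2FC was -0.71 (SE 0.23, FDR = 0.024 by edgeR's quasi-likelihood test). It is expressed at a low level here, and in the brain it is best known from mural cells of vessels, whose markers gave 1 gene lower of 6 together with endothelial markers, at a median Log2FC of -0.26. Their part in the result was not tested.

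Complex II, which links the citric acid cycle to the chain, split into members that fell and members that did not pass the test. Sdha, the flavoprotein that oxidises succinate, stood at 380.4, 353.1, 350.9 and 344.2 CPM in rAAV-control and at 281.2, 300.8, 296.9 and 307.3 CPM in rAAV-OVA mice. Its groups were well apart, although the Log2FC was only -0.20 (SE 0.06, FDR = 0.018 by edgeR). Membrane anchor Sdhc also fell, at -0.26 (SE 0.09, FDR = 0.041), with 75.5, 71.5, 76.5 and 73.5 CPM against 62.5, 68.5, 62.7 and 64.6 CPM and no overlap. The iron-sulphur subunit Sdhb was at -0.05 (SE 0.09, FDR = 0.73) and the other anchor, Sdhd, at -0.07 (SE 0.11, FDR = 0.66). The median of the 4 members was -0.14.

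In complex III, which oxidises ubiquinol, 1 of 8 members fell, a share of 12.5% against 14% of all genes, and the median was -0.22. That member, the small subunit Uqcr11, gave 91.6, 82.4, 111.5 and 101.5 CPM in rAAV-control mice and 62.0, 84.4, 67.3 and 73.6 CPM in rAAV-OVA mice. Mouse D726 lay above the lowest rAAV-control mouse, so the groups overlapped, and the Log2FC was -0.50 (SE 0.15, FDR = 0.018 by edgeR). The core subunit Uqcrc1 at -0.20 (FDR = 0.070) and the Rieske iron-sulphur protein Uqcrfs1 at -0.21 (FDR = 0.060) came close to the limit and did not pass it.

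Complex IV, cytochrome c oxidase, had the lowest median of the 5 complexes, -0.37, and 5 of 15 members (33.3%) fell. Cox8a, a small subunit found in most tissues, had the lowest FDR of all members. Its values were 343.5, 308.7, 412.9 and 405.9 CPM in rAAV-control and 222.8, 293.3, 257.0 and 261.3 CPM in rAAV-OVA mice. All rAAV-OVA mice lay below all rAAV-control mice, and the Log2FC was -0.54 (SE 0.13, FDR = 0.0034 by edgeR's quasi-likelihood test). Cox7a2l fell with a Log2FC of -0.46 (SE 0.12, FDR = 0.0074), although rAAV-OVA mouse D726 at 172.1 CPM overlapped the rAAV-control range of 153.4 to 212.5 CPM. Cox6a1 at -0.46, Cox6b1 at -0.37 and Cox4i1 at -0.46 were called as well, each with overlapping groups. Cox4i1, the usual regulatory subunit 4, stood at 417.5, 366.3, 520.2 and 442.1 CPM against 288.7, 399.4, 312.2 and 329.6 CPM, and its FDR was 0.045. Cox5a, a partner of subunit 4 in the complex, was at -0.07 (FDR = 0.62). The low isoforms Cox4i2, Cox6a2, Cox7a1 and Cox6b2 did not pass the test, with Log2FC values from -1.10 to 0.24, and at about 1 to 2 CPM their errors were wide, with an SE of 0.48 for Cox6b2.

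Complex V, the ATP synthase, had a median of -0.28, with 3 of 17 members lower, a share of 17.6% that was close to the 14% of all genes. Atp5a1, the alpha subunit, fell from 938.7, 846.8, 825.1 and 745.8 CPM in rAAV-control to 675.6, 717.9, 691.3 and 712.0 CPM in rAAV-OVA mice. The groups did not overlap, and the Log2FC was -0.26 (SE 0.09, FDR = 0.027 by edgeR). Atp5d and Atp5c1, of the central stalk, fell with Log2FC values of -0.25 and -0.29. The catalytic beta subunit Atp5b was at -0.19 and did not pass the test (FDR = 0.12), although its groups did not overlap. The c subunit genes did not pass it, at -0.24 for Atp5g1, -0.30 for Atp5g2 and -0.18 for Atp5g3. Atpif1, which encodes the inhibitor of the ATP synthase and lies outside the symbol rule, was at -0.38 (FDR = 0.066).

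**Figure D2:**
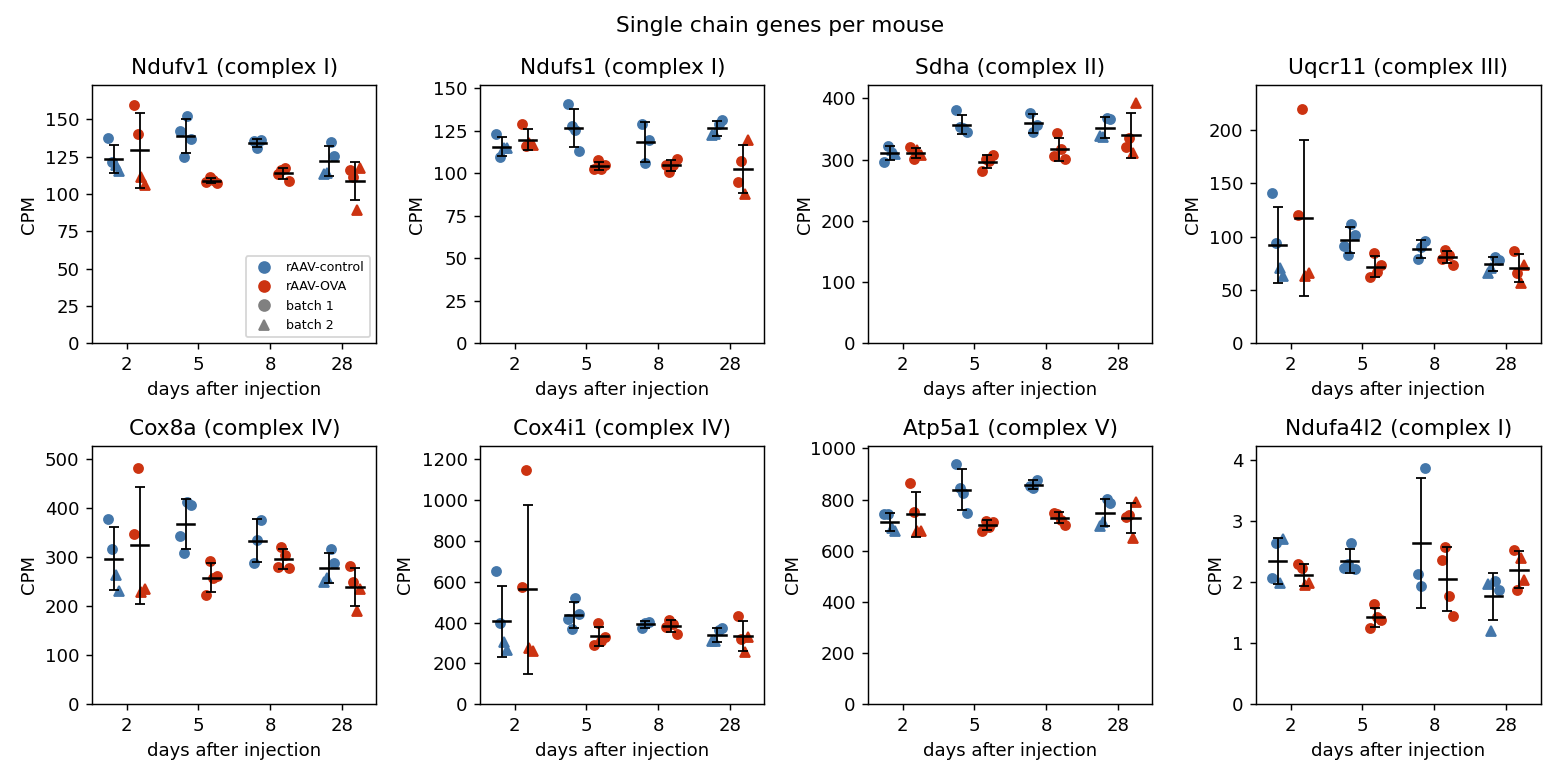
CPM per mouse (y axis) of 8 members by days after injection (x axis), blue for rAAV-control and red for rAAV-OVA, circles for batch 1 and triangles for batch 2, with bars for mean and SD. At 5 days the red points of Ndufv1, Ndufs1, Sdha, Cox8a, Atp5a1 and Ndufa4l2 lie below all blue points, and those of Uqcr11 and Cox4i1 overlap with them, while at 2 days 1 rAAV-OVA mouse of batch 1 lies far above the others in several panels.

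At 8 days the direction was the same in the model. The test of edgeR called 5 members lower (6.02%, against 4.44% of all genes) and 0 higher (against 13.9% of all genes), 81 members had a Log2FC below 0, and the median was -0.25 where all genes had -0.03. At an unadjusted p under 0.05, 33 members were lower and 0 higher, and DESeq2 and voom called 0 higher. However, the median was -0.03 without surrogate variables, -0.0049 from the mice of 8 days alone, with 0 members called, and -0.04 without the 3 libraries named above, with 0 called. The summed CPM of the 83 members was 9792 in rAAV-OVA and 10284 in rAAV-control mice. The count itself ran from 0 to 44 when each mouse was left out, and it was 44 without rAAV-control mouse D851 of 28 days. It was 0 without either of the rAAV-control mice D720 and D722 of 8 days, or without D684, BEC-B541 or BEC-B542 of 2 days. D720 stood apart from the other rAAV-control mice of 8 days, with T cell markers at 109.8 CPM against 7.98 and 9.79, monocyte markers at 223 against 24.1 and 37.2, and microglial markers at 1193 against 383 and 543. Its part in the result was not tested beyond leaving it out. In 13 members (15.7%, against 11.9% of all genes) all rAAV-OVA mice lay below all rAAV-control mice, and in 3 members, Atp5mpl, Cox7b and Ndufb1 (3.61%, against 14.4% of all genes), they lay above. The model gave these 3 a Log2FC between -0.19 and -0.15 with 0 called, and they are named after their values were seen.

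The members called at 8 days were Ndufv1, Ndufa13 and Ndufb4 of complex I and Atp5a1 and Atp5g1 of complex V. Ndufv1 stood at 135.7, 131.0 and 136.0 CPM in the 3 rAAV-control mice and at 113.2, 116.0, 117.5 and 108.6 CPM in the rAAV-OVA mice. Both groups were narrow, they did not overlap, and the Log2FC was -0.30 (SE 0.09, FDR = 0.021 by edgeR). Atp5a1 gave 850.97, 843.2 and 876.5 CPM against 747.3, 743.05, 721.0 and 701.6 CPM, again without overlap, at -0.26 (SE 0.09, FDR = 0.044). Atp5g1 stood at 130.9, 139.9 and 146.2 CPM against 124.2, 128.1, 124.0 and 119.2 CPM, also apart, at -0.32 (SE 0.10, FDR = 0.025), although its mean was 89.1% of the rAAV-control mean, a smaller difference than this Log2FC. Ndufb4 overlapped, at 15.3, 17.2 and 17.9 CPM against 13.97, 15.5, 14.8 and 14.9 CPM, and its Log2FC of -0.58 (FDR = 0.043) also exceeded what these values show. Ndufb4c, a close copy that can share reads with it, was not called. Ndufv1, Ndufa13 and Atp5a1 were called at both 5 and 8 days.

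At 28 days 1 member passed the test while the table as a whole was widely changed. The test of edgeR called 1 member lower (1.2%) and 0 higher, where it called 14.3% of all genes lower and 19.2% higher. At an unadjusted p under 0.05, 1 member was lower and 2 were higher, DESeq2 called 0 members higher and voom 1. The median was -0.06 against 0.01 over all genes, and 54 members had a Log2FC below 0. In 2 members (2.41%) all rAAV-OVA mice lay below all rAAV-control mice, against 14% of all genes. The member called was Ndufs1, with 122.5, 123.0, 129.0 and 131.6 CPM in rAAV-control and 94.8, 107.4, 88.0 and 119.8 CPM in rAAV-OVA mice. The rAAV-OVA mice were spread wider but all lower, at a Log2FC of -0.26 (SE 0.08, FDR = 0.019 by edgeR). Ndufs1 was thus lower at 5 and 28 days. Without rAAV-OVA mouse D845, in which the members had their lowest sum, the median at 28 days was 0.22, and without rAAV-OVA mouse D844 it was -0.26, with 4 members called lower. D844 stood apart from the other rAAV-OVA mice of 28 days, with T cell markers at 58.2 CPM against 416 to 990, monocyte markers at 77.2 against 711 to 1548, and interneuron markers at 1756 against 406 to 537.

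At 2 days 0 members were called in either direction by edgeR, DESeq2 or voom, as were 0 (0%) of all genes by edgeR, and 0 members had an unadjusted p under 0.05. The median Log2FC was 0.05, with 65 of 83 above 0, and its direction was not stable. Without the 3 libraries of highest member share it was -0.23, with 82 of 83 below 0, 0 called and 8 at an unadjusted p under 0.05. It was 0.28 without surrogate variables, 0.46 from batch 1 alone and -0.08 from batch 2 alone, and with each mouse left out it ran from -0.11 without D684 to 0.46 without BEC-B542. The mice of each group were spread widely by batch. In batch 1 the members' summed CPM in rAAV-OVA mice was 139% of that in rAAV-control mice, and in batch 2 it was 96.2%. Genes of the cytosolic ribosome moved with them, at 139% in batch 1 and 90.9% in batch 2. At 28 days the members' sum was 96.6% in batch 1 and 95.5% in batch 2. The part of the batch, or of the 3 libraries, in the difference at 2 days was not tested.

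**Figure D3:**
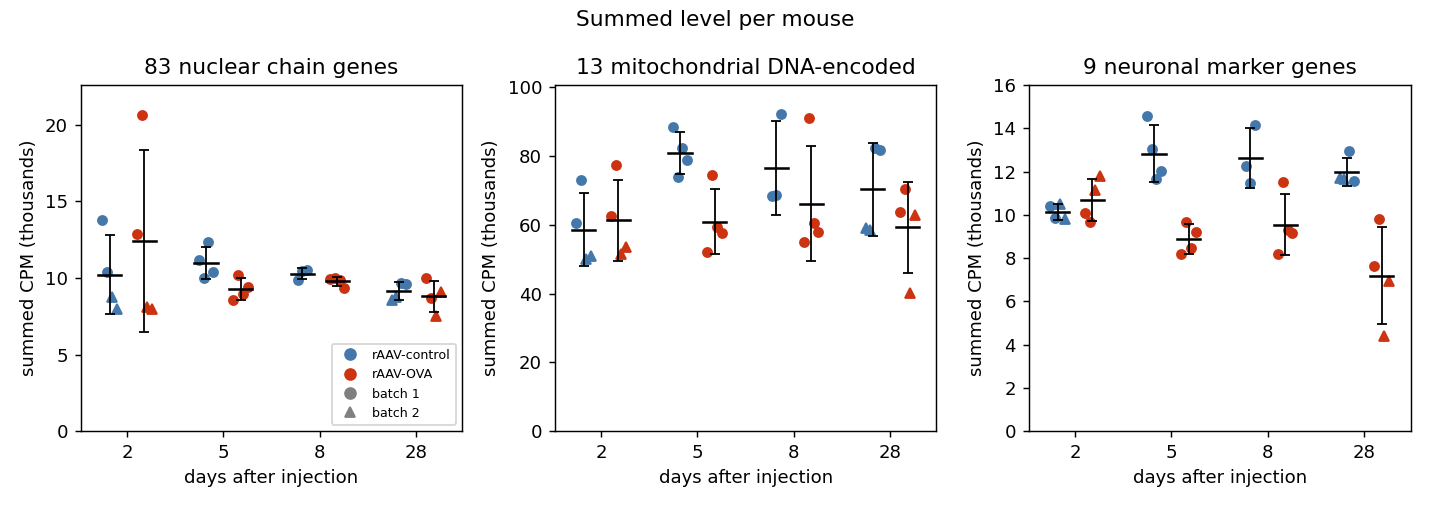
Summed CPM per mouse, divided by 1000 (y axis), of the 83 members, the 13 subunits encoded by mitochondrial DNA and 9 neuronal markers, by days after injection (x axis), blue for rAAV-control, red for rAAV-OVA, circles for batch 1, triangles for batch 2, bars for mean and SD. At 5 days the members' means are 10970 and 9288 CPM with overlapping groups, while the neuronal sums do not overlap at 5 or 28 days.

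As sums, the members of all complexes were lowest against rAAV-control at 5 days. The sum of complex IV was 80.1% of the rAAV-control mean, that of complex I 83.8%, of complex III 85.9%, of complex V 86.9% and of complex II 89.2%. The sum over complex II was the only one of these with groups that did not overlap at 5 days. At 8 days the sums of complex II, at 94.4% of the rAAV-control mean, and of complex V, at 93.0%, were lower with groups that did not overlap. Over single members, the ratio of group means had a median of 85.4% at 5 days, where 79 of 83 were below 100%. It was 97.8% at 8 days and 97.2% at 28 days.

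Whether the response of a member differed between time points was tested as an interaction in the same model, with FDR values over all genes. Between 2 and 5 days the response became lower in 3 members, against 8.84% of all genes. These were Cox8a with a change in Log2FC of -0.51 (FDR = 0.043), Cox7a2l with -0.49 (FDR = 0.043) and Ndufa6 with -0.45 (FDR = 0.045 by edgeR's quasi-likelihood test). None of the 3 was called without the 3 libraries of highest member share, 2 of them from rAAV-OVA mice of 2 days. Between 5 and 28 days the response became higher in 4 members, against 5.58% of all genes, namely Cox7a2l by 0.72 (FDR = 0.0086), Ndufa4l2 by 1.04 (FDR = 0.034), Sdhc by 0.40 (FDR = 0.040) and Ndufv3 by 0.47 (FDR = 0.047). Between 5 and 8 days edgeR, DESeq2 and voom called 0 members, 0 had an unadjusted p under 0.05, and 0.192% of all genes were called in either direction. Between 8 and 28 days these tools called 0 members and edgeR 0 genes (0%), with 6 members at an unadjusted p under 0.05.

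Cox7a2l changed sides between 5 and 28 days. At 28 days its CPM was 135.9, 129.7, 148.5 and 147.9 in rAAV-control mice and 248.9, 166.9, 176.0 and 147.7 in rAAV-OVA mice. Mouse D661 gave the value of 248.9, and the other rAAV-OVA mice ran from within the rAAV-control range up to 176.0. Within each batch the rAAV-OVA mice lay above the rAAV-control mice. The Log2FC of 0.26 at 28 days did not pass the test (FDR = 0.11 by edgeR).

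The 13 chain subunits encoded by mitochondrial DNA made up most of the chain's transcripts, at 4.43% to 8.76% of a library. They stood below rAAV-control at 5 days in 13 of 13 cases, with a median Log2FC of -0.36, and 2 were called lower and 0 higher by edgeR. The share called lower, 15.4%, was close to the 14% of all genes. At an unadjusted p under 0.05, 3 were lower and 0 higher. ND4L, of the proton-pumping arm of complex I, was at -0.60 (FDR = 0.042) and COX2, which takes electrons from cytochrome c, at -0.84 (FDR = 0.041). With each mouse left out the count ran from 0 to 2. COX1, the catalytic subunit of complex IV, was at -0.37 (FDR = 0.14) and CYTB, of complex III, at -0.45 (FDR = 0.070). Nuclear copies of mitochondrial DNA can share reads with these genes, so single values are less certain. The median was -0.31 at 8 days and -0.20 at 28 days, when edgeR, DESeq2 and voom called 0 of them in either direction and 0 had an unadjusted p under 0.05.

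Genes that build or feed the chain were described from lists. Of 45 assembly factors, 7 were lower at 5 days, namely Ndufaf2 and Ndufaf3 for complex I, Sdhaf1 and Sdhaf4 for complex II, Uqcc3 and Lyrm7 for complex III and Coa3 for complex IV, and 1 was higher, the copper chaperone Sco1 with a Log2FC of 0.35 (FDR = 0.019 by edgeR). The share that was lower, 15.6%, was close to the 14% of all genes. The median of this list was -0.12. Of 12 genes for cytochrome c and the quinone, 4 were lower (Coq2, Coq4, Coq8a and Coq9, which act in the synthesis of ubiquinone). The 2 higher were Coq8b with 0.71 (FDR = 0.00028 by edgeR) and Coq10b with 0.50. The share that was lower was 33.3%, against 14% of all genes. The share that was higher, 16.7%, was close to the 15.2% of all genes. Cycs, cytochrome c itself, was at 0.12 (FDR = 0.45). These genes were chosen for naming after their values were seen, except Coq8b.

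Of 17 genes of pyruvate dehydrogenase and the citric acid cycle, which supply NADH and succinate to the chain, 4 were lower and 0 higher at 5 days (23.5%, against 14% of all genes lower), with a median of -0.18. Among them Idh3g and Idh3b, subunits of the NAD-dependent isocitrate dehydrogenase, fell by 0.34 and 0.29 on the log2 scale, and Pdha1, of pyruvate dehydrogenase, by 0.28. Lower were also 4 of the 17 at 8 days (against 4.44% of all genes), and 3 at 28 days, where the share of 17.6% was close to the 14.3% of all genes and 1 was higher, Suclg2. These cycle genes were also named after their values were seen. The median of 24 other mitochondrial proteins was 0.02 at 5 days with 3 lower (12.5%), and that of 79 mitochondrial ribosome genes was -0.03 with 4 lower (5.06%) and 1 higher. The 78 cytosolic ribosome genes had a median of 0.01 in the model at 5 days, with 1 lower and 0 higher by edgeR and 1 higher at an unadjusted p under 0.05, while their summed CPM was 124% of the rAAV-control mean without overlap. In 37 of them (47.4%, against 21% of all genes) the rAAV-OVA values of 5 days were all higher than the highest rAAV-control value. Their median was 0.37 at 8 days and 0.68 at 28 days.

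**Figure D4:**
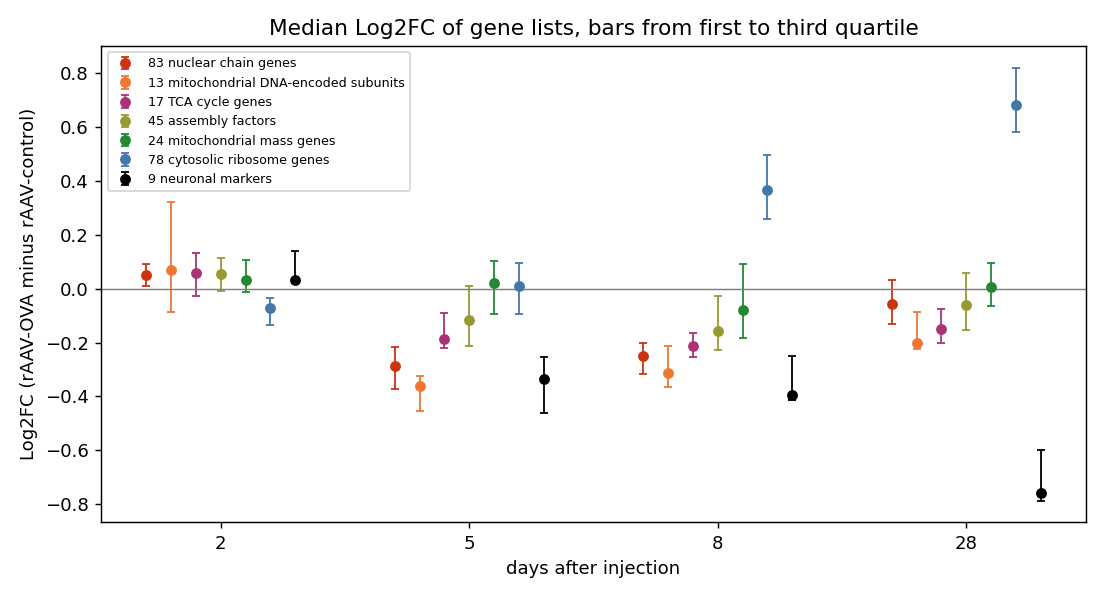
Median Log2FC (points) and the range from the lower to the upper quartile (bars) of 7 gene lists (y axis) by days after injection (x axis). At 5 days the chain genes, the mitochondrial DNA-encoded subunits and the neuronal markers have medians between -0.29 and -0.36, mitochondrial mass genes lie at 0.02, and by 28 days the members are at -0.06 while the neuronal markers are at -0.76 and the cytosolic ribosome genes at 0.68.

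Of 23 glycolysis genes, 3 were lower (13%, against 14% of all genes) and 6 higher (26.1%, against 15.2%) at 5 days, and the median Log2FC was 0.01. Hk3 rose with a Log2FC of 3.18 (FDR = 3.5e-05 by edgeR), Slc16a3, a lactate exporter, with 2.43, Hk2 with 1.79 and Pfkfb3 with 0.86. All 5 inducible genes whose products act on the chain or answer to it were higher at 5, 8 and 28 days. Of all genes 15.2%, 13.9% and 19.2% were higher at these times. At 28 days all rAAV-OVA mice lay above all rAAV-control mice in only 2 of the 5. Nos2, whose product nitric oxide can block complex IV, rose at 5 days from 1.404 to 46.1 CPM as group means (Log2FC 4.59, FDR = 5.4e-06), Acod1, which makes the complex II inhibitor itaconate, from 0.722 to 44.96 CPM, and AA467197, which encodes a homologue of Ndufa4, from 0.368 to 27.6 CPM. Hif1a and Ucp2 rose by 0.72 and 1.50 on the log2 scale. Among 15 regulators of mitochondrial biogenesis, Pprc1, Gabpb1 and Gabpb2 were higher at 5 days, a share of 20% that was close to the 15.2% of all genes. Ppargc1a was at -0.05 then and lower at 28 days, at -0.33 (FDR = 0.024 by edgeR). It was the only regulator lower at 28 days (6.67%, against 14.3% of all genes).

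At 5 days the sums of neuronal and oligodendrocyte markers were lower, as was that of the members, while microglial, monocyte and T cell markers were higher. The sum of the 9 neuronal markers was 8886 CPM in rAAV-OVA and 12831 CPM in rAAV-control mice at 5 days and 7198 against 11977 CPM at 28 days, without overlap at either time, and 3 and then 8 of the 9 were called lower by edgeR. The members' sum was 9288 against 10970 CPM at 5 days and 8798 against 9156 CPM at 28 days. So at 28 days neuronal markers were at 60.1% of rAAV-control and the members at 96.1%. Oligodendrocyte markers were lower in 3 of 5 genes at 5 days, with a median of -0.93. Of the 6 microglial markers 4 were higher and 1 lower, and 4 of 5 monocyte and 3 of 3 T cell markers in the table were higher. Of 6 astrocyte markers 2 were called lower, although in 3 all rAAV-OVA mice lay above all rAAV-control mice. Over all genes 14% were lower and 15.2% higher. All 5 choroid plexus markers were lower at 5 days, and most of their rAAV-control sum came from mouse D724. With these 5 markers as a covariate, 19 members were lower at 5 days. The part of neurons, oligodendrocytes or entering immune cells in the members' levels was not tested.

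Transcript length and library scaling were checked for the members, since the median member transcript has 607 bases against 1542 over all genes. Of the 83 members, 60 have transcripts under 770 bases, a class of 3125 genes whose median Log2FC at 5 days was -0.02. With length as an offset, 17 members were lower at 5 days. When libraries were scaled by their total counts alone, the median of all genes at 5 days rose to 0.12 and that of the members was -0.15, which leaves the same distance of -0.27 between them, and 6 members were called.

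**Figure D5:**
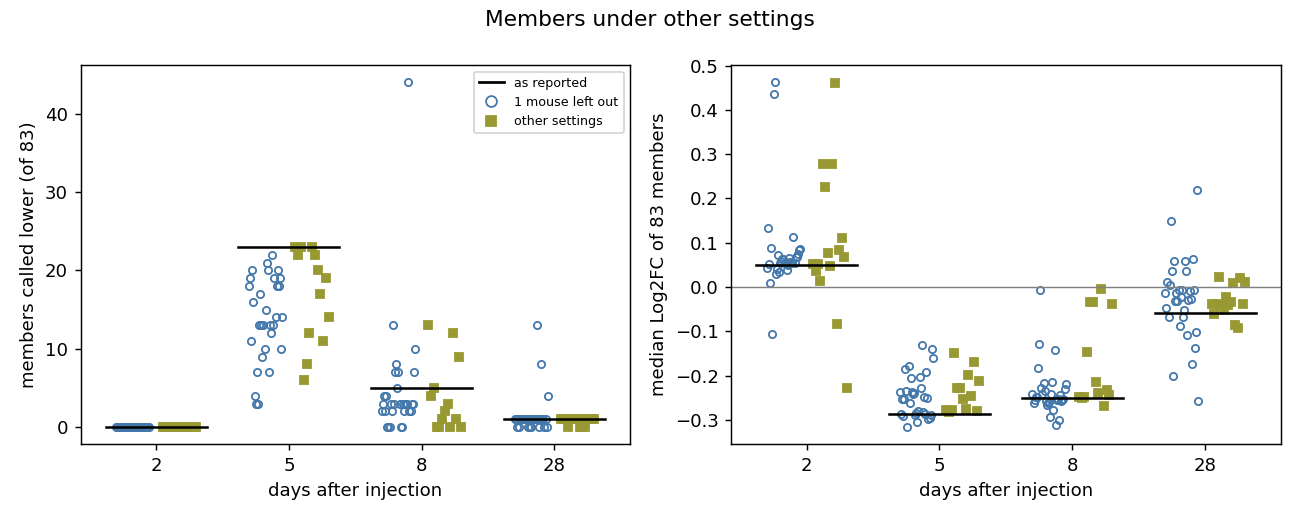
Number of the 83 members called lower (left) and their median Log2FC (right) by days after injection (x axis), with a line for the values reported, open circles for fits with 1 mouse left out and squares for other settings. At 5 days the circles run from 3 to 22 members and the median stays below 0, while at 8 days the count runs from 0 to 44 and at 28 days the median falls on both sides of 0.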

How the data were processed

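Bulk RNA-seq was made from the left hippocampus of 31 mice, 1 library each. The authors trimmed reads with fastp, quantified them with Salmon 1.8.0 against GENCODE M29 with GC correction, summed them to genes with tximeta and kept genes reaching 15 counts in 15 mice or more. The values are expected counts as deposited by the authors, rounded to whole numbers and not normalized, and 0 columns were left unused. Depth per mouse was 19046977 to 57407902 counts, with a median of 27024978. Groups and batch came from the labels.

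All 15648 genes were fitted with edgeR 4.0.16 in R 4.3.3 (TMM scaling, robust dispersions, quasi-likelihood F-test) on 8 groups and 2 surrogate variables from sva 3.50.0 with random seed 1, following the covariates of the study, whose authors used DESeq2 1.36.0. Benjamini-Hochberg FDR values cover all genes. A call is an FDR up to 0.05, and a DEG also needs an absolute Log2FC from 0.66 upward. Interactions between time points were contrasts of the same model. CPM are counts per 1000000 after TMM scaling, and SE belongs to the Log2FC. Transcript lengths, found for 15625 genes, served for levels per kilobase. Steps were tested on simulated data.

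Members and lists were chosen with earlier results of these data known. Named members were DEGs, at each time point the 3 highest and 3 lowest Log2FC among called members, the member with the highest mean CPM of each complex, core subunits, and isoforms with their partners. List genes were named where they are DEGs or encoded by mitochondrial DNA. Other members called, and other genes of the lists, were named after their values were seen. Cox8b, on the list of isoforms, is not reported, nor are some other genes. The ATP synthase inhibitor Atp5if1 stands in the table as Atpif1. Promoter sequences and coordinates are from RefSeq on GRCm38.p6, an older build than that of GENCODE M29, and served only for sequence. Alternatives were DESeq2 1.42.0, voom of limma 3.58.1, other scalings, covariates and filters, length offsets, mice of 1 time point or 1 batch alone, and each mouse left out.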

Additional observations from a re-analysis of the deposited data

Results flagged for a closer look

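In groups of 4 mice, the highest and the lowest value were compared with the others for 39 named members and 7 sums of members, 322 groups in all, and in 7 a mouse stood far from the rest, of which 6 are given here. Chance alone flags about 1 group in 20. The sum of the 13 subunits encoded by mitochondrial DNA was 90930 CPM in rAAV-OVA mouse D701 at 8 days, where the other mice of the group lay between 54950 and 60536. Cox6b2 in the same mouse was 0.625 CPM, with the others between 1.67 and 1.87. Atp5b was 750 CPM in rAAV-OVA mouse D845 at 28 days, with the others between 932 and 942. Atp5g2 was 13.7 CPM in rAAV-control mouse D743 at 2 days, against 5.21 to 6.42. Ndufa4l2 was 1.20 CPM in rAAV-control mouse D851 at 28 days, against 1.88 to 2.01. Ndufs1 was 128.9 CPM in rAAV-OVA mouse D683 at 2 days, against 115.9 to 117.6.

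The response to rAAV-OVA differed between time points in 7 tests of edgeR with an interaction term. From 2 to 5 days the Log2FC changed by -0.45 in Ndufa6, -0.49 in Cox7a2l and -0.51 in Cox8a, where 8.84% of all genes became lower. From 5 to 28 days it changed by 0.47 in Ndufv3, 0.72 in Cox7a2l, 1.04 in Ndufa4l2 and 0.40 in Sdhc, where 5.58% of all genes became higher. Without the 3 libraries of highest member share, 0 members became lower from 2 to 5 days and 1 became higher from 5 to 28 days.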

How the results depend on the processing

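No paired analysis was possible because the replicate names differ for every mouse. The report counts 23 members lower at 5 days, then 5 and then 1 at the later time points. At 5 days the count was 1 under the limit on Log2FC, 6 with libraries scaled by total counts, 8 without surrogate variables, 12 with the batch label in their place, and, in alternatives chosen after seeing the data, 11 with svaseq on TMM-scaled CPM and 14 without the 3 libraries of highest member share. The medians at 5 days were -0.0049 for complex II and -0.089 for complex III by total counts, and -0.20 for complex IV with svaseq on TMM-scaled CPM.

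At 8 days the count lower was 0 under the limit on Log2FC, by total counts, without surrogate variables, from the mice of that day alone and without the 3 libraries, 1 with the batch label in place of surrogate variables or svaseq on TMM-scaled CPM, 2 with batch and surrogate variables, 3 with the stricter count filter, 9 with choroid plexus markers as covariate (also chosen after seeing the data), 12 with length offsets and 13 with DESeq2. The median over the members at 8 days was -0.15 by total counts, -0.033 without surrogate variables and with the batch label in their place, -0.0049 from that day alone and -0.038 without the 3 libraries. For complexes I to V in turn it was -0.17, -0.028, -0.14, -0.15 and -0.14 by total counts, and -0.067, -0.015, -0.038, -0.0026 and -0.010 without surrogate variables and also with the batch label. It was -0.039, 0.012, -0.010, 0.025 and 0.018 from that day alone, and -0.057, -0.0028, -0.058, -0.022 and -0.031 without the 3 libraries. The cause was not tested.

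At 28 days 0 members were lower under the limit on Log2FC, by total counts, from that day alone and in either batch alone, 1 was higher with voom, with batch and surrogate variables or without the 3 libraries, 2 with svaseq on TMM-scaled CPM and 3 by total counts, and the median of complex V was 0.088 in batch 1 alone. From 2 to 5 days the response became lower in 7 members with DESeq2 or the batch label alone, 13 with batch and surrogate variables, 8 with length offsets, 1 with voom or svaseq on TMM-scaled CPM and 0 by total counts, with the stricter filter or without the 3 libraries. From 5 to 28 days it became higher in 7 with DESeq2, 0 without surrogate variables, 1 with the batch label or without the 3 libraries, and 2 with svaseq on TMM-scaled CPM.

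With each mouse left out, the count at 5 days ran from 3 to 22 lower and 0 to 1 higher, at 8 days from 0 to 44 lower, and at 28 days from 0 to 13 lower and 0 to 5 higher. The response became lower from 2 to 5 days in 0 to 15 members, and higher from 5 to 28 days in 0 to 6. The median over the members ran from -0.32 to -0.13 at 5 days, from -0.31 to -0.0075 by 8 days and from -0.26 to 0.22 in the last comparison. For the complexes at 5 days it ran from -0.34 to -0.16 in complex I, -0.16 to -0.040 in complex II, -0.42 to -0.15 in complex IV and -0.31 to -0.098 in complex V. At 8 days it ran from -0.34 to -0.020, -0.15 to 0.021, -0.29 to -0.030, -0.33 to 0.036 and -0.28 to -0.0065 in complexes I to V. At 28 days it ran from -0.25 to 0.23, -0.026 to 0.22, -0.24 to 0.22, -0.30 to 0.20 and -0.28 to 0.18. The counts at 28 days were 4, 8 and 13 lower without D844, D851 and D701, and those at 8 days 7 to 13 without D845, D725, D787, D726, D844 or D745 and 44 without D851. Of 1278 values of called members under all alternatives, 784 kept the call, 494 lost it and 0 reversed. Depth limits Ndufa4l2, Cox4i2, Cox6a2, Cox7a1 and Cox6b2 most, each under 5 CPM.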
